A study of Mus musculus with 16 samples.

Results

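The genes described here are 52 genes of the lysosome, out of the 55573 genes in the deposited count table. They were taken from a list of lysosomal enzymes, other lysosomal proteins and subunits of the lysosomal proton pump. The list was chosen with earlier results of these data known. The gene identifiers of the table were matched to gene symbols in GENCODE release M21. The list holds 22 hydrolases (10 proteases and 12 enzymes that cut sugars, sulfates or lipids), 16 subunits of the proton pump, and 14 other members (4 soluble proteins, 8 membrane proteins and 2 transcription factors). Every one of the 52 passed the filter on low counts.

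RNA was sequenced from OT1 cells, CD8 T cells of C57BL/6 origin whose transgenic receptor recognises ovalbumin. They had been transferred as a mix of Foxp3UP and Mock cells into mice with tumours, and were sorted from those tumours after 5 days by CD8, CD45.1 and/or CD90.1 and a dead-cell dye. The 4 groups of 4 libraries each are Foxp3UP with its control MockUP, and Foxp3DN with its control MockDN. The labels give no meaning for UP or DN and do not say how Foxp3, a transcription factor that defines regulatory T cells, was imposed, nor which tumour was used, so all 4 names are used as names only. Nor do they say whether libraries of a group came from separate mice or cultures, so p-values measure the spread between these libraries, which may in part be technical.

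The lysosome is the acidic compartment in which cells break down proteins, lipids and sugars delivered by endocytosis and autophagy. Soluble hydrolases do the cutting, small activator and transfer proteins present lipids to them, and heavily glycosylated membrane proteins line the wall. The vacuolar ATPase, or V-ATPase, pumps in the protons: a V1 sector in the cytosol splits ATP and turns a V0 sector in the membrane. TFEB and its relative TFE3 are transcription factors that bind a short palindromic motif, the CLEAR element, near the start sites of many lysosomal genes. In cytotoxic T cells a specialised form of the lysosome also stores granzymes and perforin.

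Library totals ran from 9389477 to 13226590 counts, and levels are given as CPM, each library's counts scaled to a common total, after TMM scaling, a correction for differences in library composition. Foxp3, measured to check the labels, had 15.2, 20.95, 29.5 and 28.7 CPM in Foxp3UP and 11.5, 13.00, 13.7 and 11.5 CPM in MockUP. It was higher in Foxp3UP (log2 fold change 0.92 ± 0.17 SE, edgeR quasi-likelihood test, Benjamini-Hochberg adjusted p = 0.00233), and had 10.3, 10.1, 10.4 and 10.2 CPM in Foxp3DN and 12.6, 13.4, 10.99 and 14.6 CPM in MockDN. Markers of CD8 T cells summed to 5862 to 6963 CPM in Foxp3UP and 4135 to 6290 CPM in MockUP. Fibroblast markers summed to 1.32 to 8.14 CPM in Foxp3UP and 0.285 to 2.81 CPM in MockUP. Epithelial markers summed to 9.08 to 19.2 CPM in Foxp3UP and 4.56 to 11.5 CPM in MockUP, and NK cell markers to 16.3 to 21.9 CPM and 18.9 to 21.1 CPM. Of the fibroblast, epithelial and NK cell markers 0 were at an adjusted p under 0.05 (edgeR), and the part of such cells in these results was not tested. One library, MockUP 2, stood apart on the second principal component (-52.8, against -13.4 to 30.1 in the other 15), and its 10 most abundant genes took 4.86% of counts. That share was 7.301% to 8.09% in Foxp3UP and 6.25% to 6.35% in MockUP 1, 3 and 4. The sample numbers in the titles place replicates 1 and 2 of every group in samples 1 to 8 and replicates 3 and 4 in samples 9 to 16, so values are also given within each of these sets. The labels do not call the sets batches.

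In Foxp3UP, many of the listed lysosomal genes stood higher than in MockUP. As the list was chosen with earlier results of these data known, its share called is not an independent test. Of the 52 members 19 were higher, 0 lower and 33 not called (edgeR, called at adjusted p under 0.05), while over all 13711 genes tested 6.08% were called higher and 5.99% lower. With DESeq2 the counts were also 19 higher and 0 lower, against 7.5% and 8.06% of all genes. At an unadjusted p under 0.05 edgeR gave 27 higher and 1 lower, where 13.3% and 13.4% of all genes were higher and lower. With the replicate number as a block shared by all 16 libraries, 24 members were called higher and 0 lower, against 9.18% and 8.38% of all genes. The log2 fold change was positive for 44 of the 52, with a median of 0.31 (quartiles 0.11 and 0.48), against a median of 0.00 (quartiles -0.22 and 0.23) over all genes. The 4 Foxp3UP libraries lay above all 4 MockUP libraries for 21 members and below them for 0, against 8.61% and 7.29% of all genes. Without Foxp3UP 1 the members called fell to 12, all higher, where 557 of 13889 genes were called higher and 507 lower. A fit of the 8 libraries of these groups alone called 11, all among the 19, where 2.53% of all genes were called higher and 2.53% lower. As these are bulk samples, more cells of a kind and more RNA per cell cannot be told apart.

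Called members were found among the enzymes, the other proteins and the pump. Of the 22 hydrolases 9 were higher, with a median log2 fold change of 0.38 and 17 positive values. Among the 14 other members 7 were higher (median 0.39, 12 positive). Of the 16 proton pump subunits 3 were higher (median 0.20, 15 positive). With the replicate block the counts were 11 hydrolases, 7 other members and 6 pump subunits, with medians of 0.36, 0.39 and 0.20. By role, 6 of 10 proteases (median 0.44), 3 of 12 other hydrolases (0.28), 3 of 4 soluble proteins (0.71), 4 of 8 membrane proteins (0.31), 0 of 2 transcription factors (0.14), 2 of 6 V0 subunits (0.29), 1 of 8 V1 subunits (0.14) and 0 of 2 accessory subunits (0.16) were called. The difference between hydrolases and pump subunits as classes was not tested.

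The medians moved with the replicates used. Within replicates 1 and 2 alone they were 0.34 for hydrolases, 0.30 for the other members and 0.29 for pump subunits, and 2 members were called, Gm2a and Atp6v0d2, where 0.164% of all genes were called higher and 0.0571% lower. Within replicates 3 and 4 alone the medians were 0.28, 0.45 and 0.13 in the same order, and 26 members were called, all but Gusb higher, where 10.1% of all genes were called higher and 12% lower. The median of the pump subunits was thus near that of the hydrolases in the first set and below it in the second. Without MockUP 2 the medians were 0.33 for hydrolases, 0.41 for the other members and 0.13 for pump subunits.

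**Figure D1:**
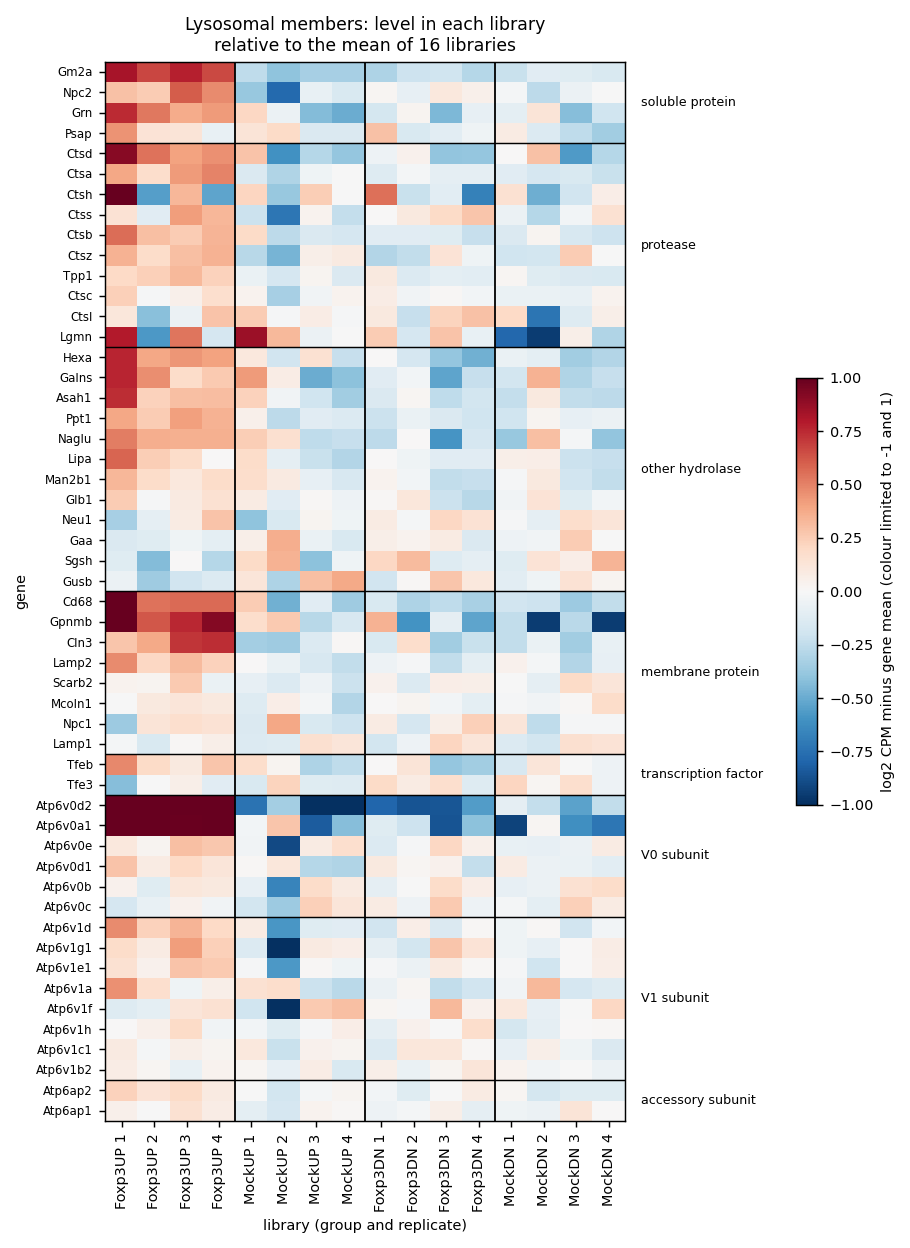
Level of each of the 52 members (rows, grouped by role and ordered within a role by fold change) in each of the 16 libraries (columns), as log2 CPM minus the gene's mean over all libraries, with colours limited to -1 and 1. Red (above the mean) is found mainly in the 4 Foxp3UP columns and in the upper rows of each role, and several pump subunits are blue in MockUP 2.

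Start-site regions of 42 of the 52 members were read from RefSeq (GRCm38.p6), each from 250 bases before the start of transcription to 50 bases after it, and 10 members had no entry. Some genes have more than 1 start site and so more than 1 region. The 6-letter core of the CLEAR element, CACGTG, which reads the same on both strands, was found in 15 of the 42 members (35.7%), against 2187 of 27025 genes (8.09%) with such a region. The 8-letter form TCACGTGA was found in 7 members (16.7%, against 1.12% of all genes), and the full 10-letter CLEAR palindrome, which extends it by 1 letter at each end, in 1 (2.38%, against 0.37%). Both longer forms contain the shorter ones, so these counts overlap. Of the 16 members with a region that were higher in Foxp3UP, 3 held CACGTG (Cln3, Ctsa and Ctsd), and of the 26 that were not called 12 did (Ctsl, Lgmn, Gaa, Glb1, Naglu, Sgsh, Lamp1, Mcoln1, Atp6v0b, Atp6v0d1, Atp6v0e and Atp6v1a). The 8-letter form was in 3 of those 16 and 4 of those 26, and the 10-letter form in 1 and 0. Whether the shares differ was not tested. A gene was counted when any of its regions held the motif, and Cln3, Ctsa and Lgmn each also had a region without CACGTG. A match is a description of the letters in the window and not a site shown to be bound.

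Of these regions 5 are printed, 5′ to 3′ on the gene's strand with each CACGTG in capitals. Cln3, Ctsd and Ctsa are the members that rose and hold the motif, Lamp1 holds the most copies and was not called, and Gm2a had the smallest adjusted p and holds none.
Cln3 (chr7:126583187-126583486, minus strand): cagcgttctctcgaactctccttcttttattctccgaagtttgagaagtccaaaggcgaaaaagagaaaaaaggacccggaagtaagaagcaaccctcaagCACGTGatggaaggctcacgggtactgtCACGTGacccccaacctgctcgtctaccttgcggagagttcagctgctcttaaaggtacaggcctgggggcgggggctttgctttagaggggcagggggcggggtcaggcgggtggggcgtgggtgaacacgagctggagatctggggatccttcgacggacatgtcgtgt
Ctsd (chr7:142387778-142388077, minus strand): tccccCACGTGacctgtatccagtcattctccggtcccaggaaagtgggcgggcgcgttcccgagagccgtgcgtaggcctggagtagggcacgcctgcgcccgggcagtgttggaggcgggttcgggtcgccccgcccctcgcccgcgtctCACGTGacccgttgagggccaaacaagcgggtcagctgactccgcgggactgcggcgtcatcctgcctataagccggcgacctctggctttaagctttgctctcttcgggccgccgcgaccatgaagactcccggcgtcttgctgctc
Ctsa (chr2:164833523-164833822, plus strand): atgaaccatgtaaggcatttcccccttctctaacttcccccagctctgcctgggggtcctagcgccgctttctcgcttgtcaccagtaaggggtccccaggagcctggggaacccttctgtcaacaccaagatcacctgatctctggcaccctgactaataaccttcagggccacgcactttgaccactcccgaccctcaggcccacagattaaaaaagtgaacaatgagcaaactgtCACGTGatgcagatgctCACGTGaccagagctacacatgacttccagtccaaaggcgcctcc
Lamp1 (chr8:13158911-13159210, plus strand): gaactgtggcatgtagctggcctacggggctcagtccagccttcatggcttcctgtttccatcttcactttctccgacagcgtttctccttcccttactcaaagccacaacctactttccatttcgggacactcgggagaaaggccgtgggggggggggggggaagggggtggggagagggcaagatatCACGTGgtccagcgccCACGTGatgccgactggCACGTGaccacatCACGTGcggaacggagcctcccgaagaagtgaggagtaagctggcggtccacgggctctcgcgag
Gm2a (chr11:55097735-55098034, plus strand): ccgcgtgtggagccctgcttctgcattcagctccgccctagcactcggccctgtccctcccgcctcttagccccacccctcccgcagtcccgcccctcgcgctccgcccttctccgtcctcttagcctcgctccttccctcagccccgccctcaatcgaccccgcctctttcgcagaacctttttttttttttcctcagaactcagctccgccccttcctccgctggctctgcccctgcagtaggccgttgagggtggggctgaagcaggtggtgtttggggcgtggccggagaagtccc
In the printed region of Cln3 the motif began 149 and 121 bases before that region's start site, the second copy inside the full palindrome. Another Cln3 region, at chr7:126585768-126586067, held no CACGTG. In Ctsd it began 245 and 98 bases before, and in Lamp1 61, 45, 28 and 15 bases before. In the printed region of Ctsa 1 copy began 12 bases before the start and the other 5 bases after it. Another Ctsa region, at chr2:164832622-164832921, held no CACGTG.

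Soluble activator and transfer proteins held the gene with the smallest adjusted p among the members. Gm2a (ENSMUSG00000000594, chr11:55098115-55113029 on mm10) encodes the GM2 activator, which lifts the ganglioside GM2 out of membranes for hexosaminidase. It had 993, 890.4, 959.6 and 886 CPM in Foxp3UP, against 468, 424, 444 and 445 CPM in MockUP. In the other arm it had 452, 486, 486 and 458 CPM in Foxp3DN and 478, 517, 515 and 504 CPM in MockDN. Thus all 4 Foxp3UP libraries stood far above the other 12, which lay close together. The log2 fold change was 1.07 ± 0.08 (SE), a 2.09-fold difference (edgeR adjusted p = 3.41e-07). It was 1.07 within replicates 1 and 2 (adjusted p = 0.0271) and 1.03 within replicates 3 and 4, and Gm2a was called under all 18 alternative settings tried. By p it ranked 3 among all 13711 genes.

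Npc2, a sterol transfer protein of the lysosomal lumen, had 289, 281, 358 and 327 CPM in Foxp3UP and 181, 137, 223 and 212 CPM in MockUP. Grn, which encodes progranulin, the precursor of lysosomal granulins, had 92.7, 79.8, 71.5 and 74.3 CPM in Foxp3UP and 63.7, 53.1, 40.98 and 39.3 CPM in MockUP. For both genes the 2 groups did not overlap, and both rose, Npc2 by 0.74 ± 0.13 (adjusted p = 0.00142) and Grn by 0.69 ± 0.16 (adjusted p = 0.00859). In the DN arm Npc2 had 238, 223, 254 and 243 CPM in Foxp3DN and 233, 196, 226 and 235 CPM in MockDN. Grn had 48.9, 56.3, 40.4 and 52.2 CPM in Foxp3DN and 51.6, 60.7, 41.2 and 48.1 CPM in MockDN. These values overlapped between Foxp3DN and MockDN for both genes, and lay below every Foxp3UP value of the same gene. Psap, the precursor of the saposins that activate sphingolipid hydrolases, averaged 148 ± 22.7 CPM in Foxp3UP and 133 ± 16.3 CPM in MockUP (SD, n = 4 each), with overlapping libraries (log2 fold change 0.16, adjusted p = 0.479).

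Among the proteases, 6 of 10 rose and none of the 10 was called lower. Ctsd, the aspartic protease cathepsin D (ENSMUSG00000007891, chr7:142375911-142388038), had 545, 423, 383 and 399 CPM in Foxp3UP and 353, 191, 238 and 222 CPM in MockUP. It had 279.8, 299, 221 and 221 CPM in Foxp3DN and 291, 356, 196 and 238 CPM in MockDN. Replicate 1 was the highest in both Foxp3UP and MockUP, and the groups did not overlap. The log2 fold change was 0.80 ± 0.20 (adjusted p = 0.0131), 0.83 within replicates 1 and 2 and 0.74 within replicates 3 and 4. Without Foxp3UP 1 it was 0.67 and no longer called (adjusted p = 0.0575).

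Ctsa, a carboxypeptidase that also shields beta-galactosidase and neuraminidase in a complex, had 333, 286, 341 and 357 CPM in Foxp3UP and 229, 206, 247 and 252 CPM in MockUP. Ctsb, the cysteine protease cathepsin B, had 553, 461, 448 and 475 CPM in Foxp3UP and 428, 312, 338 and 333 CPM in MockUP. For both the lowest Foxp3UP library was above the highest MockUP library, by a narrow margin for Ctsb. In the DN arm Ctsa had 232, 249.8, 238 and 239 CPM in Foxp3DN and 234, 225, 228 and 218 CPM in MockDN, and Ctsb had 346, 347, 344 and 320.2 CPM in Foxp3DN and 339.96, 383, 336 and 324 CPM in MockDN. All of these lay below the lowest Foxp3UP library of the same gene. Relative to MockUP they rose by 0.50 ± 0.09 (Ctsa, adjusted p = 0.00151) and 0.46 ± 0.10 (Ctsb, adjusted p = 0.00847). Tpp1, a tripeptidyl peptidase, had 95.5, 97.9, 104 and 97.5 CPM in Foxp3UP and 79.4, 74.1, 84.6 and 75.3 CPM in MockUP. It had 89.1, 75.7, 77.8 and 77.5 CPM in Foxp3DN and 84.2, 76.6, 75.4 and 74.8 CPM in MockDN. The rise over MockUP of 0.33 ± 0.08 (adjusted p = 0.0114) was the smallest among the 19 called members.

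Ctsz, cathepsin Z, had 125, 112, 121 and 125 CPM in Foxp3UP and 81.1, 70.99, 102 and 105 CPM in MockUP. Ctss, cathepsin S, which trims the invariant chain in antigen-presenting cells, had 95.3, 79.98, 116 and 109 CPM in Foxp3UP and 74.2, 52.2, 88.3 and 73.2 CPM in MockUP. In the DN arm Ctsz had 79.9, 82.6, 108 and 95.2 CPM in Foxp3DN and 85.7, 86.5, 117 and 97.7 CPM in MockDN. Ctss had 86.8, 92.5, 98.3 and 105 CPM in Foxp3DN and 82.9, 70.9, 84.7 and 96.04 CPM in MockDN. Foxp3UP and MockUP overlapped for Ctss, the one called member for which they did. Both were called near the threshold, Ctsz at 0.43 ± 0.13 (adjusted p = 0.0465) and Ctss at 0.47 ± 0.14 (adjusted p = 0.0410). Neither call held without MockUP 2 (0.33, adjusted p = 0.0914, for Ctsz and 0.34, adjusted p = 0.0734, for Ctss) or without Foxp3UP 1, 3 or 4. Ctsz also lost its call without Foxp3UP 2 (adjusted p = 0.0619) or MockUP 1 (0.0898), and Ctss without MockUP 4 (0.0715). Whether counting used the strand is not given here, so reads of members may be shared with genes that overlap them on the opposite strand, such as Nelfcd at Ctsz, Cap1 at Ppt1, Apobr at Cln3, Rmc1 at Npc1, Fdft1 at Ctsb, Grtp1 at Lamp1 and Gm12841 at Atp6v0b.

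The 4 proteases that were not called were Ctsc, which activates granzymes by removing a dipeptide, and Ctsh, Ctsl and Lgmn. Ctsc averaged 195 ± 15.03 CPM in Foxp3UP and 172 ± 19.6 CPM in MockUP (log2 fold change 0.18, adjusted p = 0.204), and Ctsl averaged 14.9 ± 2.99 CPM in Foxp3UP and 15.7 ± 1.404 CPM in MockUP (-0.08, adjusted p = 0.833). The aminopeptidase cathepsin H (Ctsh) and legumain (Lgmn), a protease that cuts after asparagine, were scarce and varied widely within groups. Ctsh ranged from 1.497 to 7.14 CPM in Foxp3UP and from 1.71 to 2.73 CPM in MockUP, and Lgmn from 2.41 to 6.52 CPM in Foxp3UP and from 3.53 to 6.82 CPM in MockUP. Macrophage and monocyte markers, whose cells are rich in several of these proteases and in Cd68, summed to 40.2 to 58.6 CPM over 15 genes in Foxp3UP and to 37.2 to 50.5 CPM in MockUP. Of their 10 tested genes 0 were called, although 8 had a positive log2 fold change. Csf1r was among those with a negative value, at 5.89 CPM in Foxp3UP and 7.25 CPM in MockUP. None of the 15 was at 0 in all libraries, and their part in these results was not tested. Dendritic cell markers, whose cells are known for Ctss, summed to 133 to 152 CPM over 9 genes in Foxp3UP and 128 to 148 CPM in MockUP. Of 6 tested genes 4 had a positive log2 fold change, 1 was called higher (H2-Ab1) and 1 lower (Itgax). H2-Ab1 averaged 49.8 CPM in Foxp3UP and 28.2 CPM in MockUP, and Itgax 18.6 CPM in Foxp3UP and 50.9 CPM in MockUP. The sum thus joins genes that moved in opposite directions. Siglech was at 0 in all libraries, and the part of these markers was not tested.

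Of the other hydrolases 3 of 12 rose. Ppt1, which removes palmitate from proteins (ENSMUSG00000028657, chr4:122836242-122859175), had 141, 128, 142 and 137 CPM in Foxp3UP and 111, 89.6, 99.3 and 97.9 CPM in MockUP. It had 92.4, 102, 97.1 and 93.4 CPM in Foxp3DN and 93.2, 109.7, 101 and 103 CPM in MockDN. Foxp3UP was above all 12 other libraries, and the log2 fold change from MockUP was 0.46 ± 0.08 (adjusted p = 0.00181).

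Hexa, the alpha subunit of the hexosaminidase that the GM2 activator serves, had 43.9, 33.8, 35.2 and 34.3 CPM in Foxp3UP and 27.7, 22.6, 28.8 and 21.95 CPM in MockUP. Asah1, acid ceramidase, had 71.4, 50.1, 52.4 and 52.7 CPM in Foxp3UP and 50.02, 41.5, 37.04 and 33.4 CPM in MockUP. In the DN arm Hexa had 25.9, 23.02, 19.8 and 18.5 CPM in Foxp3DN and 24.7, 24.1, 20.3 and 21.1 CPM in MockDN. Asah1 had 38.6, 43.1, 35.6 and 37.4 CPM in Foxp3DN and 36.2, 45.6, 35.8 and 35.4 CPM in MockDN. In both genes Foxp3UP 1 stood well above the other 3 Foxp3UP libraries. Foxp3UP and MockUP did not overlap, though for Asah1 the gap was between 50.1 CPM in Foxp3UP and 50.02 CPM in MockUP. Hexa rose by 0.54 ± 0.13 (adjusted p = 0.0143) and Asah1 by 0.48 ± 0.14 (adjusted p = 0.0312). Without Foxp3UP 1 they were at 0.44 (adjusted p = 0.0650) and 0.34 (0.145), and neither was called. Hexa was also not called without MockUP 4 (0.0513), nor Asah1 without Foxp3UP 3 (0.0534), MockUP 3 (0.0943) or MockUP 4 (0.105).

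The remaining 9 hydrolases were not called and lay between -0.33 (Gusb) and 0.49 (Galns) on the log2 scale. Galns is a sulfatase of keratan sulfate and Naglu a glucosaminidase of heparan sulfate. Galns averaged 27.7 ± 5.14 CPM in Foxp3UP and 19.7 ± 6.06 CPM in MockUP (adjusted p = 0.131), and Naglu 17.7 ± 1.01 CPM in Foxp3UP and 13.4 ± 2.45 CPM in MockUP (0.40, adjusted p = 0.146) with no overlap between the groups. Lipa, the acid lipase that splits cholesteryl esters and triglycerides, averaged 40.9 ± 7.06 CPM in Foxp3UP and 31.7 ± 4.83 CPM in MockUP (0.37, adjusted p = 0.0804). With the replicate number as a block Galns (adjusted p = 0.0191) and Lipa (adjusted p = 0.0135) were called, as they were without MockUP 1 (0.0292 and 0.0275).

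Smaller positive values, not called, were found for Man2b1, an alpha-mannosidase (0.19), Glb1, a beta-galactosidase (0.14), and Neu1, a sialidase (0.14). The 3 negative values in this class were those of Gaa, which breaks down glycogen (-0.17), Sgsh, a heparan sulfamidase (-0.26), and Gusb, beta-glucuronidase. Gusb averaged 45.5 ± 3.99 CPM in Foxp3UP and 57.1 ± 11.3 CPM in MockUP (-0.33 ± 0.14, adjusted p = 0.127). It was the member at p under 0.05 in the lower direction before adjustment. Without MockUP 2, its lowest MockUP library, Gusb was called lower (-0.46, adjusted p = 0.0102), as it was within replicates 3 and 4 alone (-0.52).

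Of the 8 membrane proteins 4 rose and the other 4 were not called. Cd68, a macrosialin of the LAMP family that is best known from macrophages (ENSMUSG00000018774, chr11:69664213-69666153), had 29.2, 20.3, 20.7 and 20.6 CPM in Foxp3UP and 16.6, 9.87, 12.8 and 10.8 CPM in MockUP. In the other arm it had 12.4, 11.2, 11.6 and 11.05 CPM in Foxp3DN and 12.1, 12.00, 10.7 and 11.6 CPM in MockDN. Foxp3UP 1 was the highest of all libraries, and every Foxp3UP library was above every MockUP library (log2 fold change 0.86 ± 0.16, adjusted p = 0.00207). Of the 10 tested macrophage markers given above 8 had a positive log2 fold change as Cd68 did, although none was called. The nearest to the threshold were Cd14, at 6.49 CPM in Foxp3UP and 3.36 CPM in MockUP (0.94, adjusted p = 0.0732), and Itgam, at 4.17 CPM in Foxp3UP and 1.95 CPM in MockUP (1.07, adjusted p = 0.0802). Their part in the level of Cd68 was not tested.

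Cln3, a lysosomal membrane protein mutated in a neuronal storage disease, had 79.1, 84.8, 107 and 109 CPM in Foxp3UP and 51.6, 50.97, 59.4 and 65.7 CPM in MockUP. Replicates 3 and 4 were the higher ones in both groups, which did not overlap, and Cln3 rose by 0.74 ± 0.13 (adjusted p = 0.00189). Cln3 had 58.7, 73.7, 51.3 and 55.9 CPM in Foxp3DN and 55.2, 62.3, 51.3 and 62.1 CPM in MockDN, all below the lowest Foxp3UP library. Lamp2, a glycoprotein of the lysosomal wall with a role in chaperone-mediated autophagy, had 104, 86.5, 93.5 and 88.2 CPM in Foxp3UP and 75.2, 71.5, 67.1 and 63.3 CPM in MockUP. It rose by 0.43 ± 0.10 (adjusted p = 0.00793), also without overlap, and had 72.3, 74.5, 63.1 and 70.1 CPM in Foxp3DN and 77.4, 74.2, 61.2 and 70.7 CPM in MockDN. Its relative Lamp1, whose protein appears at the surface of T cells that have degranulated, had 219, 200.5, 224 and 231 CPM in Foxp3UP and 202, 203, 249 and 242 CPM in MockUP. It had 196, 215, 258 and 242 CPM in Foxp3DN and 202, 196, 248 and 244 CPM in MockDN. The Lamp1 ranges overlapped, and the log2 fold change was -0.03 ± 0.11 (adjusted p = 0.885).

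Gpnmb, a glycoprotein of melanosomes and lysosomes, had 51.1, 39.3, 43.2 and 48.5 CPM in Foxp3UP and 28.8, 30.7, 21.1 and 22.9 CPM in MockUP. It rose by 0.81 ± 0.21 (adjusted p = 0.0180) with no overlap, and lost its call without Foxp3UP 1 (0.0575), MockUP 3 (0.0563) or MockUP 4 (0.0509). Gpnmb had 32.5, 16.8, 23.95 and 17.7 CPM in Foxp3DN and 21.5, 13.2, 21.2 and 13.2 CPM in MockDN, so that Foxp3UP was above every other library. Melanocyte markers summed to 62.1 to 144 CPM over 6 genes in Foxp3UP, 63.2 to 94.5 CPM in MockUP, 36.5 to 81.4 CPM in Foxp3DN and 22.9 to 73.1 CPM in MockDN. Of their 5 tested genes 0 were called between Foxp3UP and MockUP, although 4 had a positive log2 fold change as Gpnmb did. None of the 6 was at 0 in all libraries, and the part of these markers in the level of Gpnmb was not tested. Scarb2, a membrane glycoprotein that acts as a receptor for enzyme delivery (0.19), Mcoln1, a calcium channel (0.17), and Npc1, the membrane partner of Npc2 in sterol export (0.04), were not called.

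Neither transcription factor was called. Tfeb averaged 29.3 ± 3.43 CPM in Foxp3UP and 23.03 ± 3.73 CPM in MockUP (0.35 ± 0.14, adjusted p = 0.128), and 22.2 ± 3.95 CPM in Foxp3DN and 23.96 ± 1.99 CPM in MockDN. Tfe3 averaged 41.2 ± 5.86 CPM in Foxp3UP and 43.4 ± 5.76 CPM in MockUP (-0.07 ± 0.12, adjusted p = 0.761). Foxp3UP and MockUP overlapped for each gene. These are RNA levels, and TFEB and TFE3 are known to be controlled largely by phosphorylation and entry into the nucleus, which were not measured.

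**Figure D2:**
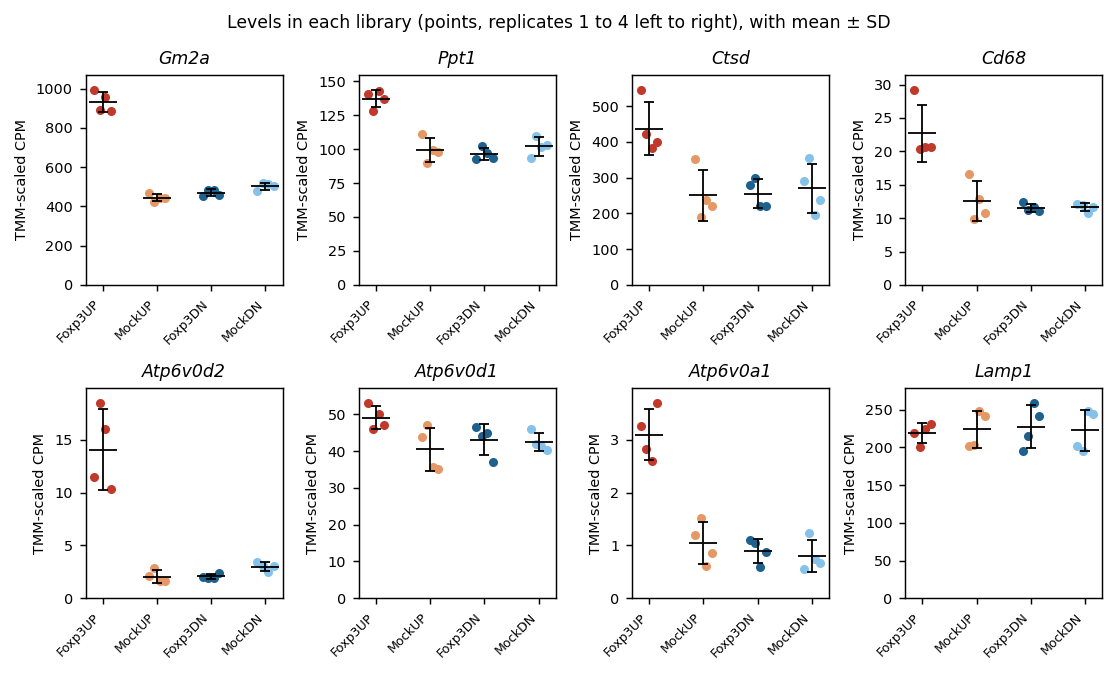
TMM-scaled CPM of 8 members in each library (points, replicates 1 to 4 from left to right) with the mean and SD of each group of 4, each axis starting at 0. Gm2a, Ppt1, Ctsd, Cd68, Atp6v0d2 and Atp6v0a1 are higher in every Foxp3UP library than in any MockUP library, while Atp6v0d1 and Lamp1 overlap.

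In the proton pump 3 of 16 subunits rose, and 2 of those were V0 subunits of low abundance. Atp6v0d2, a form of the V0 d subunit known from osteoclasts, macrophages and kidney (ENSMUSG00000028238, chr4:19876841-19922605), had 11.5, 18.5, 16.04 and 10.3 CPM in Foxp3UP, against 2.12, 2.85, 1.61 and 1.62 CPM in MockUP. In the other arm it had 2.03, 1.92, 1.93 and 2.42 CPM in Foxp3DN and 3.41, 3.06, 2.46 and 3.05 CPM in MockDN. Every Foxp3UP library was thus well above each of the other 12, while the 4 Foxp3DN libraries lay below all 4 of MockDN, an order found in 0.598% of all genes. The log2 fold change in Foxp3UP was 2.77 ± 0.23, a 6.804-fold difference (adjusted p = 9.08e-07), the largest among the members and rank 11 by log2 fold change among all genes tested. It was 2.59 within replicates 1 and 2 and 3.00 within replicates 3 and 4, and was called under all 18 alternatives.

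Its paralogue Atp6v0d1, the widely expressed form of the same subunit, had 52.96, 46.1, 50.03 and 47.2 CPM in Foxp3UP and 43.8, 47.1, 35.6 and 35.3 CPM in MockUP. In the DN arm it had 46.5, 44.2, 44.9 and 36.9 CPM in Foxp3DN and 46.03, 41.8, 41.4 and 40.4 CPM in MockDN. Foxp3UP and MockUP overlapped, and the log2 fold change was 0.28 ± 0.11 (adjusted p = 0.112). It was called with the replicate block (adjusted p = 0.0497) and without MockUP 2 (0.35, adjusted p = 0.0349). Per kilobase of exon, Atp6v0d1 stood at 27.4 ± 1.72 RPKM in Foxp3UP and 22.6 ± 3.31 RPKM in MockUP (CPM per kilobase of exon, SD, n = 4 each), and Atp6v0d2 at 5.18 ± 1.41 RPKM in Foxp3UP and 0.755 ± 0.214 RPKM in MockUP. The widely expressed form therefore remained the more abundant of the pair in both groups.

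Atp6v0a1, a form of the V0 a subunit that anchors the stator of the pump, had 3.26, 2.83, 2.61 and 3.69 CPM in Foxp3UP and 1.198, 1.52, 0.606 and 0.865 CPM in MockUP. It had 1.11, 1.04, 0.588 and 0.872 CPM in Foxp3DN and 0.555, 1.24, 0.738 and 0.668 CPM in MockDN. It was the scarcest member per kilobase, and Foxp3UP was above every other library (log2 fold change 1.54 ± 0.29, adjusted p = 0.00276). Of the other V0 subunits, Atp6v0b (0.12) and Atp6v0c (-0.03), which build the proton-carrying ring, and Atp6v0e (0.30, adjusted p = 0.256), a small membrane subunit, were not called. Atp6v0c averaged 143 ± 8.69 CPM in Foxp3UP and 146 ± 27.5 CPM in MockUP.

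In the V1 sector 1 of 8 subunits rose. Atp6v1d, part of the central rotor shaft, had 149, 126, 136 and 123 CPM in Foxp3UP and 113, 71.7, 98.5 and 99.2 CPM in MockUP. It had 94.2, 113, 96.9 and 108 CPM in Foxp3DN and 104, 109, 93.98 and 105 CPM in MockDN. MockUP 2 was its lowest library, and Foxp3UP did not overlap with MockUP (log2 fold change 0.48 ± 0.12, adjusted p = 0.0128). It was not called without Foxp3UP 1 (0.42, adjusted p = 0.0538). The stator subunits Atp6v1e1 (0.33, adjusted p = 0.0709) and Atp6v1g1 (0.42, adjusted p = 0.138) were called with the replicate block (adjusted p = 0.0129 and 0.0293).

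The other 5 V1 subunits were not called. They were Atp6v1a (0.20) and Atp6v1b2 (0.04), which form the ATP-splitting head, Atp6v1c1 (0.05) and Atp6v1h (0.07) of the stator and its regulation, and Atp6v1f (0.09) of the rotor. The accessory subunits Atp6ap1 (0.12) and Atp6ap2, the prorenin receptor (0.21, adjusted p = 0.0996), were not called either, although the 4 Foxp3UP libraries were above all MockUP libraries for Atp6ap2.

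With Atp6v0d2 and Atp6v0a1 set aside, a choice made after their values were seen, 1 of 14 pump subunits was called and the median was 0.16. The mean deviation of these 14 from their level over all libraries was 0.04 to 0.16 log2 units in Foxp3UP, against -0.40 in MockUP 2 and -0.03 to 0.03 in the other 3 MockUP libraries. In MockUP 2 the low subunits included Atp6v1f (52.4 CPM, against 92.7 to 131 CPM in the other 3), Atp6v1g1 (30.9 CPM against 58.1 to 67.9 CPM) and Atp6v0e (72.7 CPM against 133 to 152 CPM). Atp6v1f and Atp6v1g1 have exonic lengths of 1063 and 1135 bases in the table, and Atp6v0e 3712 bases. In MockUP 2 the correlation of level with gene length was 0.398, against 0.279 to 0.323 in the other 15 libraries, and the mitochondrial share of counts was 0.279%, the lowest of the 16. The part of these library properties in the low values was not tested. As mean deviations, the 22 hydrolases stood at 0.41, 0.04, 0.22 and 0.17 in Foxp3UP and at 0.12, -0.14, -0.07 and -0.12 in MockUP, where MockUP 1 was above Foxp3UP 2. As median deviations the hydrolases stood at 0.18 to 0.37 in Foxp3UP and -0.16 to 0.15 in MockUP, with no overlap. The 14 other members stood at 0.26 to 0.35 in Foxp3UP and -0.20 to -0.05 in MockUP, with no overlap.

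**Figure D3:**
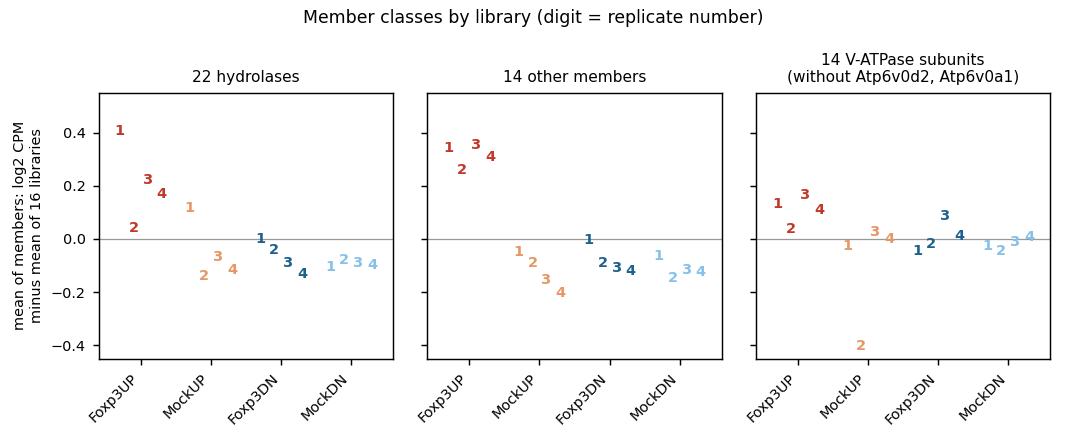
Mean over the members of each class of log2 CPM minus the gene's mean over 16 libraries (vertical axis), for each library of the 4 groups (digits are replicate numbers). The other members separate Foxp3UP from the rest, the hydrolases overlap between Foxp3UP 2 and MockUP 1, and MockUP 2 lies far below the rest for the 14 pump subunits. The hydrolase overlap is in the mean shown here and was not found in the median over the same genes.

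Ordered by level per kilobase of exon in MockUP, Gm2a was first (226 ± 12.8 RPKM in Foxp3UP and 108 ± 4.38 RPKM in MockUP) and Ctsd second (186 ± 31.3 RPKM in Foxp3UP and 107 ± 30.1 RPKM in MockUP). In MockUP those 2 levels lay within each other's SD, whereas in Foxp3UP Gm2a was above Ctsd by more than the SD of Ctsd. Atp6v1f and Lamp1 came next, at 94.8 ± 34.4 and 83.7 ± 9.31 RPKM in MockUP. At the low end were Sgsh, Atp6v0d2, Ctsh and Atp6v0a1, the last at 0.472 ± 0.0731 RPKM in Foxp3UP and 0.1596 ± 0.0606 RPKM in MockUP. The members called higher thus included both the most and the least abundant ones.

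Between Foxp3DN and MockDN, 0 of the 52 members were called in either direction by edgeR and 0 by DESeq2, and over all genes 0.00729% were called (1 gene, lower). At an unadjusted p under 0.05 edgeR gave 0 higher and 1 lower (0.459% and 0.583% of all genes), Atp6v0d2 (-0.53 ± 0.23, adjusted p = 1.00). The members' log2 differences ran from -0.53 (Atp6v0d2) to 0.55 (Lgmn) with a median of 0.01, against 0.00 over all genes. The class medians were -0.01 for hydrolases, -0.01 for the other members and 0.04 for pump subunits. Of the members that were higher in Foxp3UP, the DN comparison gave -0.10 ± 0.08 for Gm2a, -0.08 ± 0.20 for Ctsd, -0.01 ± 0.16 for Cd68, 0.11 ± 0.13 for Npc2 and 0.39 ± 0.21 for Gpnmb.

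**Figure D4:**
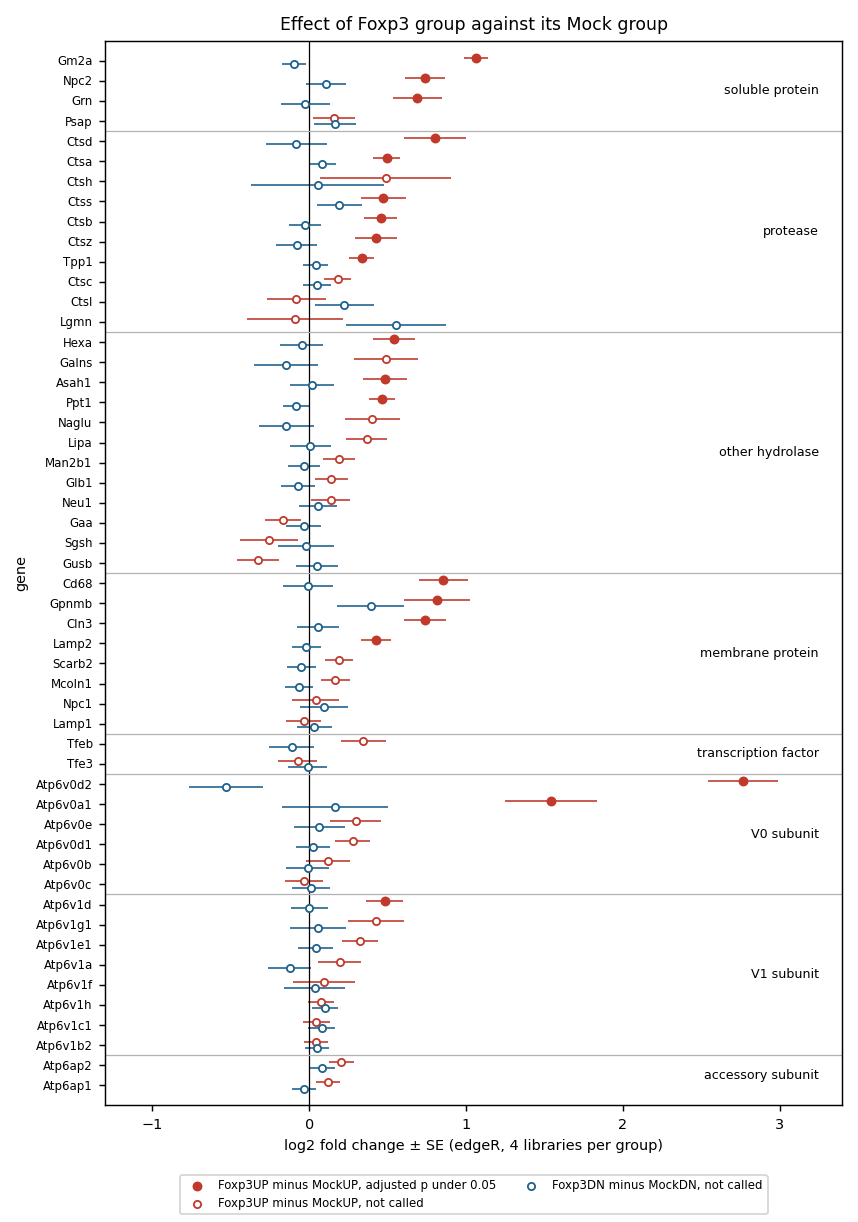
Log2 fold change with its SE (edgeR) for each of the 52 members, of Foxp3UP minus MockUP (red, filled where adjusted p was under 0.05) and of Foxp3DN minus MockDN (blue), grouped by role. All 19 filled points lie to the right of zero, and no blue point is filled.

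The difference between the 2 effects was tested directly, as the effect in the UP arm minus that in the DN arm. It was called for 3 members, all higher, against 1.83% of all genes called (0.963% higher and 0.868% lower). These were Atp6v0d2 (3.30 ± 0.32, adjusted p = 2.71e-05), Gm2a (1.16 ± 0.11, adjusted p = 1.99e-05) and Ppt1 (0.54 ± 0.12, adjusted p = 0.0258). With the replicate block 13 members were called, adding Npc2 (0.64, adjusted p = 0.00844), Cd68 (0.87, 0.00978), Grn (0.72, 0.0131), Ctsd (0.88, 0.0204), Ctsz (0.53, 0.0275), Hexa (0.59, 0.0341), Lamp2 (0.44, 0.0341), Cln3 (0.68, 0.0352), Ctsb (0.49, 0.0375) and Ctsa (0.41, 0.0480). The block raised the count over all genes as well, to 811 (2.94% higher and 2.98% lower) against 251. The call of Ppt1 was lost when any of 10 single libraries was left out, with adjusted p between 0.0506 and 0.0709. Without MockUP 1 the members called were 7, all higher, where 258 of 13966 genes were called higher and 260 lower.

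Set directly against Foxp3DN, Foxp3UP had 18 members higher and 0 lower, with 34 not called, against 6% of all genes called higher and 5.78% called lower. DESeq2 gave 20 higher and 0 lower, against 6.48% and 6.73% of all genes. At an unadjusted p under 0.05 edgeR gave 24 higher and 0 lower, where 13.8% and 12.7% of all genes were higher and lower. The median was 0.20 over members and 0.01 over all genes. The same Foxp3UP libraries serve here and in the comparison with MockUP. Naglu (0.64 ± 0.17, adjusted p = 0.0228) and Galns (0.65 ± 0.20, adjusted p = 0.0446) were called against Foxp3DN, whereas Ctss (0.06, adjusted p = 0.818), Ctsz (0.40, 0.0614) and Npc2 (0.39, 0.0552) were not. With the block 24 members were called (11% of all genes higher and 9.13% lower), Ctsz (0.00516) and Npc2 (0.00727) among them, together with Man2b1 (0.00558), Lipa (0.0217), Tfeb (0.0250) and Atp6v1a (0.0424). Without Foxp3DN 3 the count of members was 11, where 409 of 13910 genes were called higher and 433 lower. Without Foxp3UP 1 it was 12, where 487 of 13889 genes were called higher and 460 lower.

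Between MockUP and MockDN, the control groups, 0 members were called by edgeR and 0 by DESeq2, against 0.00729% of all genes called higher (1 gene) and 0% lower. At an unadjusted p under 0.05 there were 2 higher, Lgmn (0.81 ± 0.32) and Gpnmb (0.58 ± 0.21), and 2 lower, Gm2a (-0.18 ± 0.08) and Atp6v0d2 (-0.54 ± 0.24), each with an adjusted p of 1.00. Over all genes 1.44% were higher and 1.71% lower at that threshold. For Gm2a the 4 MockUP libraries lay below all 4 of MockDN, as for 1.09% of all genes (0.751% lay the other way), at 445 ± 18.1 CPM in MockUP against 504 ± 17.7 CPM in MockDN.

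Other genes of the lysosome, from lists that share no gene with the members, were read in the same fit of Foxp3UP against MockUP. These lists, too, were chosen with earlier results of these data known. Of 7 tested lysosomal proteases outside the member list, 3 were higher and 0 lower: Ctse, cathepsin E (0.50, adjusted p = 0.000626), Ctso (0.60, 0.00893) and Dpp7, a dipeptidyl peptidase (0.58, 0.0303). Of 23 further hydrolases 7 were higher and 0 lower, led by Smpd1, acid sphingomyelinase (0.81 ± 0.11, adjusted p = 0.000233). Smpd1 had 184, 146, 159.9 and 147 CPM in Foxp3UP and 109.8, 92.1, 88.5 and 73.4 CPM in MockUP, without overlap, and was also called in the difference of effects (0.82, adjusted p = 0.0116). Also higher were Pld3, a nuclease (0.44, 0.00556), and Acp5, an acid phosphatase (0.58, 0.00561). The medians of these lists were 0.50 for proteases and 0.29 for hydrolases, beside 0.00 for all genes.

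Of 18 further lysosomal membrane proteins and transporters 4 were higher and 1 lower (median 0.38). The 4 with the smallest adjusted p were Laptm5, which directs receptors to the lysosome (0.44, 0.00254), Ostm1, a partner of the chloride exchanger (0.38, 0.0111), Mcoln2, a calcium channel (-0.43, 0.0199), and Tpcn1, a cation channel of the same membranes (0.66, 0.0348). Of these Mcoln2 was the one that fell. Among 9 genes that deliver enzymes to the lysosome 0 were higher and 1 lower, Gnptab, which tags hydrolases with mannose 6-phosphate (-0.80 ± 0.13, adjusted p = 0.000885). Gnptab had 118, 125, 99.1 and 99.8 CPM in Foxp3UP and 191, 255, 164 and 159 CPM in MockUP. It was lower in the difference of effects as well (-0.74, adjusted p = 0.0447).

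None of 9 further pump subunits and assembly factors was called (edgeR, 0 at an unadjusted p under 0.05 in either direction), with a median of 0.01. Among 18 genes of TFEB control and of mTORC1 at the lysosome 1 was higher, Lamtor5, a Ragulator subunit (0.53, adjusted p = 0.0463), and 1 lower, Fnip2, a folliculin partner (-1.28 ± 0.40, adjusted p = 0.0478), with a median of 0.08. Of 21 autophagy genes 2 were higher and 0 lower (median 0.13), Atg14 (0.56, adjusted p = 0.0265) and Gabarap (0.38, 0.0374). Of 13 genes of the cytotoxic granule 4 were higher and 0 lower (median 0.32). They were Gzmb, granzyme B (1.05, 0.000109), Gzmk, granzyme K (1.20, 0.000372), Stxbp2, which serves granule fusion (0.25, 0.0366), and Prf1, perforin (0.94, 0.0476). Over all genes 6.08% were called higher and 5.99% lower, and the shares called in the TFEB and mTORC1 list (5.56% in each direction) and in the autophagy list (9.52% higher) were near these. For none of these lists was a test of the list as a whole made.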

How the data were processed

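The deposited values are raw counts of reads for each gene in 16 libraries, made by the authors in 1 table, with exonic lengths per the file headers. Per the submitters' processing notes the tools were STAR 2.6.1 and Subread 1.6.3 and the build mm10. Neither the annotation release nor the use of strand is given in these sources. Of 55573 identifiers 55480 matched GENCODE M21. Columns were matched to samples by title, and no pair of libraries was identical.

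Genes passing filterByExpr of edgeR 4.0.16 (minimum count 10, R 4.3.3) were tested by the robust quasi-likelihood F test with TMM scaling, all 16 libraries and 1 term per group. Benjamini-Hochberg adjustment ran over 13711 genes, two-sided, with calls at 0.05. The SE is the log2 fold change divided by the square root of F. RPKM is TMM-scaled CPM per kilobase of exonic length. The steps were tested on simulated data. Alternatives included DESeq2 1.42.0, library totals, a replicate block, each replicate set and each library left out.

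The members and lists were chosen with earlier results of these data known. Every member is named. Values in every library are given for members called in the UP or DN comparison or their difference, and for Atp6v0d1, Lamp1 and Cd68. From other lists up to 4 called genes are named, and 1 result under this rule is not reported here.

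Libraries with the same number deviated together from their group means, with correlations of 0.630, 0.213, 0.297 and 0.398 (replicates 1 to 4 of Foxp3UP and MockUP) and of 0.364, 0.582, 0.545 and 0.298 (Foxp3DN and MockDN). Across the arms they were 0.107 to 0.326, and for 6 of 8 pairs a library with another number was more alike (0 of 8 within an arm). The labels do not say what a number stands for. All counts and p-values are from the fit without the block unless the block is named. A fit with the number as a block is given beside results it changes. The block runs over all 16 libraries, so it joins the arms in every comparison, Foxp3UP against MockUP included. It thus uses a pairing across arms that the data show less clearly, and no fit paired within 1 arm was run.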

Additional observations from a re-analysis of the deposited data

Results flagged for a closer look

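A difference between the UP and the DN effects that passed the edgeR test of the difference itself was found for 3 members, Atp6v0d2 (3.30), Gm2a (1.16) and Ppt1 (0.54, log2 scale).

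In 208 groups of 4 libraries (52 members, 4 groups), 15 values lay far from the other 3 of their group by Dixon's test at the 95% level, which chance gives in about 1 group in 20. In Foxp3UP 1, Hexa was high at 43.88 CPM (the other 3 at 33.76 to 35.19 CPM), Asah1 at 71.37 CPM (50.05 to 52.72), Cd68 at 29.17 CPM (20.29 to 20.65) and Naglu at 19.21 CPM (17.14 to 17.29), while Npc1 was low at 22.38 CPM (31.59 to 32.48). In MockUP 2, Npc1 was high at 37.87 CPM (24.98 to 26.07) and Tfe3 at 52.01 CPM (39.98 to 40.88), while Atp6v1e1 was low at 74.12 CPM (107.5 to 111.3). These 2 libraries held 8 of the 15 values.

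In Foxp3DN, Tpp1 was high in replicate 1 at 89.06 CPM (75.73 to 77.83), Scarb2 low in replicate 2 at 69.44 CPM (78.37 to 79.76) and Ctsb low in replicate 4 at 320.2 CPM (344.2 to 347). In MockDN, Asah1 was high in replicate 2 at 45.61 CPM (35.42 to 36.19), Gaa in replicate 3 at 42.48 CPM (34.28 to 35.51), and Ctsc and Atp6v0e in replicate 4 at 184.3 CPM (170.8 to 171.8) and 143.6 CPM (128.1 to 130.3).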

How the results depend on the processing

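Limits were as follows. The scarce members Ctsh, Lgmn and Atp6v0a1 had wide errors, with SEs between Foxp3UP and MockUP of 0.42, 0.31 and 0.29, against a median SE of 0.18 over all genes. MockUP 2, a library that stands apart, and Foxp3UP 1 moved several calls, as given beside the genes. Fits of either replicate set hold 2 libraries a group, and their counts differed widely. The cause was not tested.

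Gm2a and Atp6v0d2 were called between Foxp3UP and MockUP under all 18 alternatives, and 7 more (Ctsa, Ppt1, Npc2, Grn, Cln3, Cd68 and Atp6v0a1) under all but the fit of replicates 1 and 2. Leaving out 1 library ended the call of 7 others, and no called member turned negative under any alternative. The 19 members called between Foxp3UP and MockUP were 11 in a fit of those groups only, 2 within replicates 1 and 2, and 12 to 20 with 1 library left out. The 3 members called in the difference of effects were 13 with the replicate block, 14 with a term for the set of replicates, 0 within replicates 1 and 2, 15 within replicates 3 and 4 (14 higher, 1 lower), 8 by DESeq2, and 2 to 7 with 1 library left out. Of all genes, 2.94% were higher and 2.98% lower in that difference with the block, and 3.38% and 3.46% with the set term. The shares were 0.0143% and 0% within replicates 1 and 2, 5% and 7.37% within replicates 3 and 4, and 2.27% and 2.68% by DESeq2. The 18 members called between Foxp3UP and Foxp3DN were 2 within replicates 1 and 2, where 0.528% of all genes were higher and 0.4% lower. With 1 library left out they were 11 to 16. Members called between Foxp3DN and MockDN, and between MockUP and MockDN, were 0 under every alternative run. Where the block added calls the cause was not tested. The replicate block ended no call of a member.

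Over all genes the counts moved further. For Foxp3UP and MockUP, 1654 genes became 2567 with the set term, 31 within replicates 1 and 2, 3025 within replicates 3 and 4, 658 in the fit of those groups only, and 1064 to 1978 with 1 library left out. For the difference of effects, 251 became 811 with the replicate block, 938 with the set term, 2 and 1688 within the first and second set, 644 by DESeq2, and 99 to 518 with 1 library left out. For Foxp3UP and Foxp3DN, 1616 became 2755 with the block, 2931 with the set term, 130 and 3440 within the sets, 2492 in the fit of those groups only, and 842 to 1477 with 1 library left out. For Foxp3DN and MockDN, 1 became 0 and 3 within the sets and stayed at 1 to 1 with 1 library left out. For MockUP and MockDN, 1 became 2 with no filter on low counts, 35 within replicates 3 and 4, 9 by DESeq2, and 1 to 2 with 1 library left out. Scaling by library totals moved the median of all genes in Foxp3UP over MockUP to -0.04, with 646 called higher and 1081 lower against 833 and 821 with TMM, and 18 members higher and 0 lower. The causes of these changes were not tested.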
